A study of Mus musculus with 48 samples.

Results

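Gfap, Aqp4, Slc1a2, Slc1a3, Aldh1l1, Gja1, Glul and Agt are 8 genes commonly used to mark astrocytes, and they were followed by name through every library of a mouse hypothalamus RNA sequencing series. The 8 genes were taken by symbol from the deposited table of 21558 genes, all 8 were found, and all 8 passed the filter on low values that left 13685 genes for testing. The series has 48 libraries, and each library is a pool of 3 male mice of strain C57BL/6 (C57BL/6N in the design text, which counts 144 mice). Values are RPKM (reads scaled to gene length and to the mapped reads of the library). Levels of genes of different length are compared only roughly, because differences between libraries still went with gene length, as given below.

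The libraries form 8 series of 6, and the 6 libraries of a series carry the title numbers 1, 5, 9, 13, 17 and 21, which have no unit in the labels. In the early period the mice were 2 months old, at 10 dBA and normal air pressure, and either moved freely (series a and b, with the same labels) or were under hind limb unloading (series a and b, likewise). Hind limb unloading lifts the hindquarters off the ground and serves as a ground model of weightlessness. In the late period the labels give an age of 3 months, while the design text gives 2 months for all mice. Late mice moved freely or were unloaded, and lived at 10 dBA and normal pressure, called quiet here, or at 85 dBA and 0.9 atm, called noise here. The louder sound always came with the lower pressure, and the late period with the higher age, so the parts of each pair cannot be told apart. With 1 series for each late condition, a condition is also inseparable from anything else that set its series apart. The labels do not say whether the pools of a series were separate experiments, and the p-values cover the spread among these pools alone.

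Astrocytes clear glutamate from synapses through the transporters encoded by Slc1a2 and Slc1a3 and turn it into glutamine with glutamine synthetase, the product of Glul. They are joined to each other through gap junctions of the connexin encoded by Gja1, and their endfeet on blood vessels carry the water channel encoded by Aqp4. Gfap encodes the intermediate filament protein that is classically raised in reactive astrocytes, Aldh1l1 encodes a folate-metabolising enzyme found widely in astrocytes, and Agt encodes angiotensinogen, which astrocytes make in the hypothalamus as the precursor of brain angiotensins. In bulk tissue, fewer cells of a type and less RNA per cell cannot be told apart.

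In the noise and the late against early comparisons below, Gfap and Agt moved opposite to Slc1a2 and Slc1a3. The unloading comparisons did not show this split, and in early unloading Agt rose with Slc1a2 and Slc1a3. The sequence just upstream of a RefSeq start is therefore shown for these 4. Each run is the 250 bases before the RefSeq start of the gene (GRCm38.p6), 5′ to 3′ on the gene's strand, in lower case, with capitals marking a match to a motif that was searched. The windows lie at chr11:102897201-102897450 on the minus strand for Gfap, chr8:124569707-124569956 on the minus strand for Agt, chr2:102706188-102706437 on the plus strand for Slc1a2 and chr15:8710808-8711057 on the minus strand for Slc1a3. A RefSeq entry was matched for 7 of the 8 members, all but Aqp4. The windows of Gfap, Slc1a2 and Aldh1l1 lie inside the span of the gene in the GENCODE annotation. For these genes the RefSeq start used is therefore not the outermost annotated start.
Gfap: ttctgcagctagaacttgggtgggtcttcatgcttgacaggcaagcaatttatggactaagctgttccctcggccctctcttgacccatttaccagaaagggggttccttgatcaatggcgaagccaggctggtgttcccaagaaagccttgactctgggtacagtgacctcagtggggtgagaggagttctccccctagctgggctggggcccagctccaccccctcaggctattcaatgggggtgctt
Agt: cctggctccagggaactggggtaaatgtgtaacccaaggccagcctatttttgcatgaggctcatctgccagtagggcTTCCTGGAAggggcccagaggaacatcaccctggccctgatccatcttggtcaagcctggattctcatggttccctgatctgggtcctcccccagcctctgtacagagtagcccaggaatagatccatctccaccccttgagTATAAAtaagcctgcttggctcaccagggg
Slc1a2: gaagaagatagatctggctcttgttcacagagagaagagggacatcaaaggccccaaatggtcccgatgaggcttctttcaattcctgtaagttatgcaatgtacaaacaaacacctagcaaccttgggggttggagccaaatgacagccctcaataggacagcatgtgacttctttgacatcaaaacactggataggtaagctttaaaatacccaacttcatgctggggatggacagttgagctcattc
Slc1a3: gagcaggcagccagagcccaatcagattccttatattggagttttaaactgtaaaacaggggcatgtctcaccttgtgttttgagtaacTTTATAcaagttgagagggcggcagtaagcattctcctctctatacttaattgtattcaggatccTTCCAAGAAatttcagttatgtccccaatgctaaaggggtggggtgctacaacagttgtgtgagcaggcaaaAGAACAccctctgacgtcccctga

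The 8 motifs were searched on both strands. They were TGTTCT (core of a glucocorticoid response element, in 16.1% of 32851 promoter windows of the same length), TTCNNNGAA (STAT, 7.02%), CACGTG (clock E-box, 6.02%), TTANGTAA (D-box, 2.06%), the palindromic NFI site (0.0365%), ACAATGG (SOX, 3.02%), TGANTCA (AP-1, 6.75%) and TATAAA (the core promoter box named after its first letters, 12.4%). The Agt window held a TATA box at position -30 from the start and a STAT match at -172. The Slc1a3 window held the reverse complement of the glucocorticoid core at -24, a STAT match at -96 and a TATA box match on the other strand at -161. The Gja1 window held an AP-1 match at -19, and the windows of Gfap, Slc1a2, Aldh1l1 and Glul held none of the 8 motifs. For Gfap, Slc1a2 and Aldh1l1 the sequence before the outermost annotated start was not searched. These matches describe letters in a window and were not linked to the values that follow.

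Libraries differed in composition before any single gene was considered. Mitochondrially encoded genes took 8.95% to 62.4% of all RPKM, with early means of 41.8% (a) and 44.5% (b) when moving freely and 20.5% (a) and 34.3% (b) when unloaded. The late quiet means were 11.5% free-moving and 14.03% unloaded, and the noise means 28.3% and 33.6%. Because RPKM is scaled to the library total, this share moves the level of every other gene. Member differences are therefore given as deposited and, where it matters, after median-ratio scaling (each library divided by the median of its gene ratios to the all-library mean) or with the mitochondrial share as a covariate. Depth, estimated from the smallest steps of the RPKM values, was 28.3 to 55.2 M reads per library (median 38.1). Library number 9 of early unloaded series a stood apart with a summed 12137 RPKM of anterior pituitary markers, against at most 66.2 in any other library. Choroid plexus markers summed to 389.98 RPKM in late quiet free-moving library number 17, to 280.5 and 96.5 in late quiet unloaded libraries 17 and 13, and to at most 39.3 elsewhere. Leaving out the pituitary-rich library was the only fit aimed at these tissues. The fits without title number 17 or 13 also dropped the choroid-rich libraries, but together with all others of that number. The part of choroid plexus in the member values was therefore not tested by itself.

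All 8 members were well expressed, and none was at or near 0 in any library, the lowest single value being 5.59 RPKM for Aqp4. Glul was the most abundant at 403.1 ± 83.4 RPKM (SD over 48 libraries), followed by Agt at 233.4 ± 48.6, Gfap at 141.3 ± 39.6, Slc1a3 at 63.1 ± 22.1 and Slc1a2 at 47.9 ± 23.9. Gja1 (22.5 ± 8.18), Aldh1l1 (17.1 ± 2.31) and Aqp4 (16.5 ± 6.69) were the lowest, though still above 83.4% of all genes in the table. The highest library exceeded the lowest by 6.18-fold for Aqp4, 5.08-fold for Slc1a2, 4.11-fold for Slc1a3, 3.79-fold for Gja1, 3.10-fold for Gfap, 2.496-fold for Agt and 2.06-fold for Glul. Aldh1l1 varied least, by 1.85-fold. The sum of the 8 members was 842 ± 135 RPKM (n = 6) in its lowest series (early free-moving a) and 1068 ± 39.2 in its highest (early unloaded a).

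**Figure D1:**
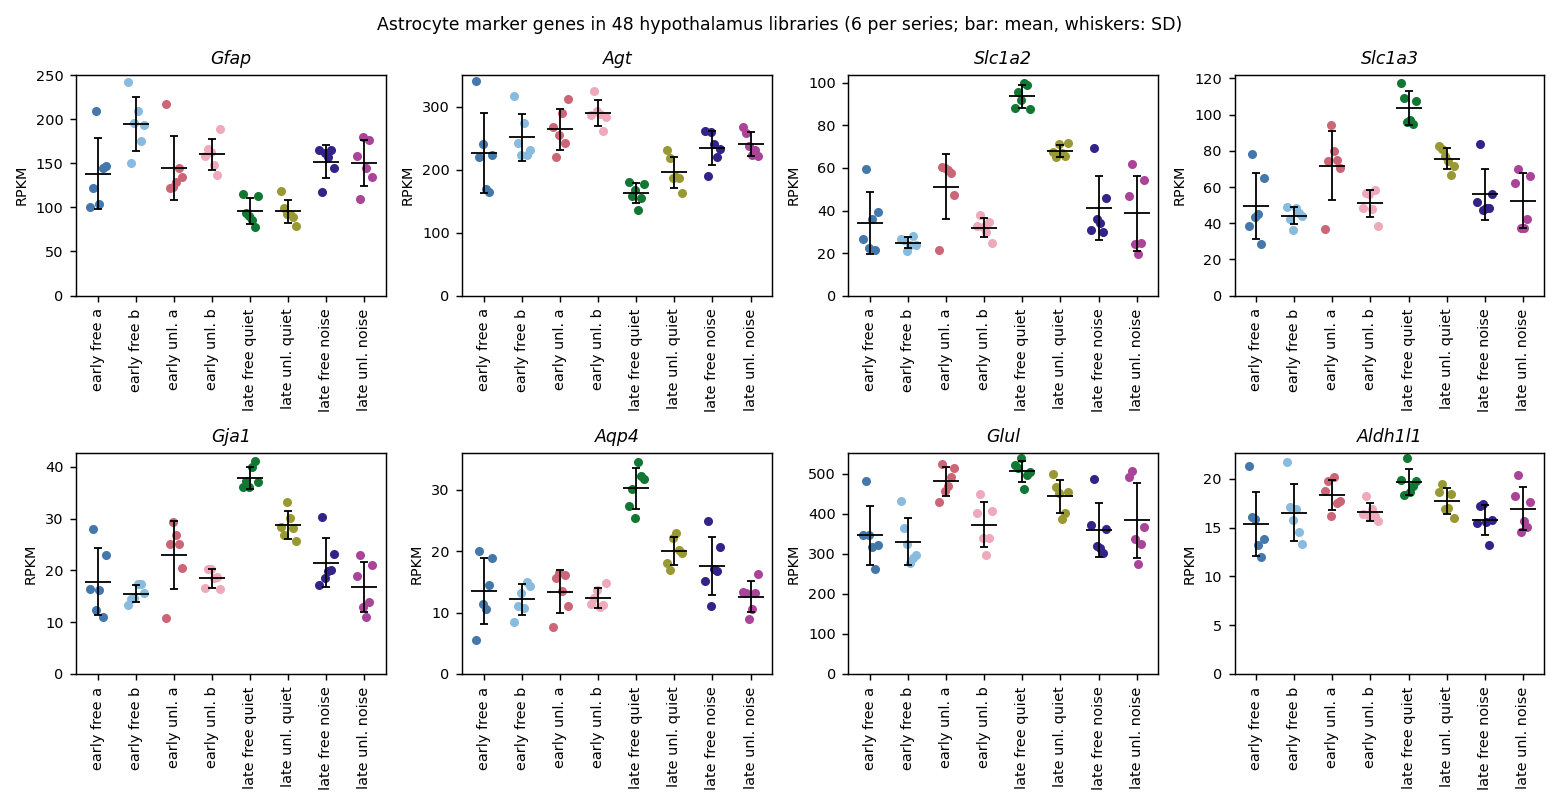
RPKM (y axis, from 0) of the 8 genes in the 8 series (x axis; unl., unloaded), each point 1 library, the bar the mean and the whiskers the SD of 6. Slc1a2, Slc1a3, Gja1 and Aqp4 are highest in the late quiet free-moving series, where Gfap and Agt are low.

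The glutamate transporters had their highest level in late quiet free-moving mice, while early free-moving series b had their lowest. Slc1a2 was at 87.8 (lowest), 93.8 (median) and 99.9 RPKM (highest) in free-moving mice of the late quiet condition, and their unloaded counterparts were at 65.2, 67.2 and 71.5. In the noise series it was at 30.0, 35.1 and 69.5 when moving freely and at 19.7, 35.8 and 61.6 when unloaded. In the early period it was at 21.3, 31.2 and 59.5 in free-moving series a, 20.8, 25.0 and 27.8 in free-moving series b, 21.6, 58.4 and 60.7 in unloaded series a, and 24.7, 32.4 and 38.1 in unloaded series b. The 6 libraries of the late quiet free-moving series all stood above every other library of the study for Slc1a2, and the spread within series was widest under noise and in the early series a.

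Slc1a3 followed a similar order at higher levels, from 104 ± 9.24 RPKM (late quiet free-moving) and 75.6 ± 5.89 (late quiet unloaded) down to 44.2 ± 4.57 in early free-moving series b (n = 6 each). Between these lay early unloaded series a (71.9 ± 19.0), the noise series (55.9 ± 13.9 free-moving, 52.5 ± 15.1 unloaded), early unloaded series b (51.1 ± 7.47) and early free-moving series a (49.7 ± 18.3). In the order of series means, 3 of 7 neighbouring pairs differed by more than the larger SD for Slc1a2, and 1 of 7 for Slc1a3. The ratio of Slc1a2 to Slc1a3 within a library, which does not depend on scaling, was 0.912 ± 0.120 and 0.904 ± 0.0803 in the late quiet free-moving and unloaded series and 0.564 ± 0.0452 to 0.721 ± 0.0974 as series means elsewhere.

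Glul, which converts glutamate to glutamine, was at 506.5 ± 25.7 RPKM in the late quiet free-moving series, 481.4 ± 36.0 in early unloaded series a and 443.7 ± 41.4 in the late quiet unloaded series. The other 5 series had means of 330.8 to 383.6, and none of the 7 neighbouring pairs differed by more than the larger SD. In their series means, Gja1 and Aqp4 ran with the transporters. Gja1 was at 37.9 ± 2.12 RPKM in the late quiet free-moving series, 28.8 ± 2.67 in the late quiet unloaded series and 15.5 ± 1.64 to 23.0 ± 6.61 elsewhere. Aqp4 was at 30.2 ± 3.36, 19.99 ± 2.29 and 12.1 ± 2.48 to 17.6 ± 4.73 in the same order. For both genes the late quiet free-moving series differed from the next series by more than the larger SD, and for both this was 1 of 7 neighbouring pairs.

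Gfap had nearly the opposite order. It was at 150.7, 194.5 and 242.3 RPKM (lowest, median, highest) in early free-moving series b and at 78.2, 92.1 and 115.3 in free-moving mice of the late quiet condition. The late quiet unloaded series was as low, at 78.9, 92.7 and 118.8, and the other 5 series had medians of 131.5 to 160.2. The gap of early free-moving series b above the next series, and the gap of the other series above the late quiet pair, were the 2 of 7 neighbouring gaps above the larger SD. Agt was lowest in the same late quiet free-moving series, at 136.7, 163.0 and 180.7 RPKM, and highest in early unloaded series b, at 262.2, 288.0 and 326.0. Only the gap between the late quiet series (163 ± 16.1 free-moving, 196 ± 25.0 unloaded) passed the larger SD for Agt. Aldh1l1 had series means of 15.4 ± 3.32 to 19.7 ± 1.37 RPKM, with 0 of 7 gaps above the larger SD.

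A ratio of members within a library removes the library's scaling, but not the trend with gene length given below. The ratio of Slc1a2 to Gfap had its highest series means in the late quiet condition, although single libraries overlapped. It was 0.764 to 1.27 in the 6 late quiet free-moving libraries (mean 1.00) and 0.569 to 0.907 in the late quiet unloaded ones (mean 0.725). Early free-moving series b was lowest, at 0.106 to 0.173 (mean 0.131), and the remaining 5 series had means of 0.203 to 0.383. The highest single library outside the late quiet series was number 5 of the noise free-moving series, at 0.593, above the lowest late quiet unloaded library. Slc1a3 to Gfap gave 1.09 ± 0.0965 and 0.800 ± 0.0736 in the late quiet free-moving and unloaded series and 0.231 to 0.536 as series means elsewhere, and Aqp4 to Gfap gave 0.323 ± 0.0714 and 0.214 ± 0.0418 against 0.0645 to 0.121. The ratio of Gfap to Agt ranged less, with series means from 0.486 (late quiet unloaded) to 0.774 (early free-moving b). Single libraries of these series ran from 0.455 to 0.512 and from 0.621 to 0.879, without overlap.

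**Figure D2:**
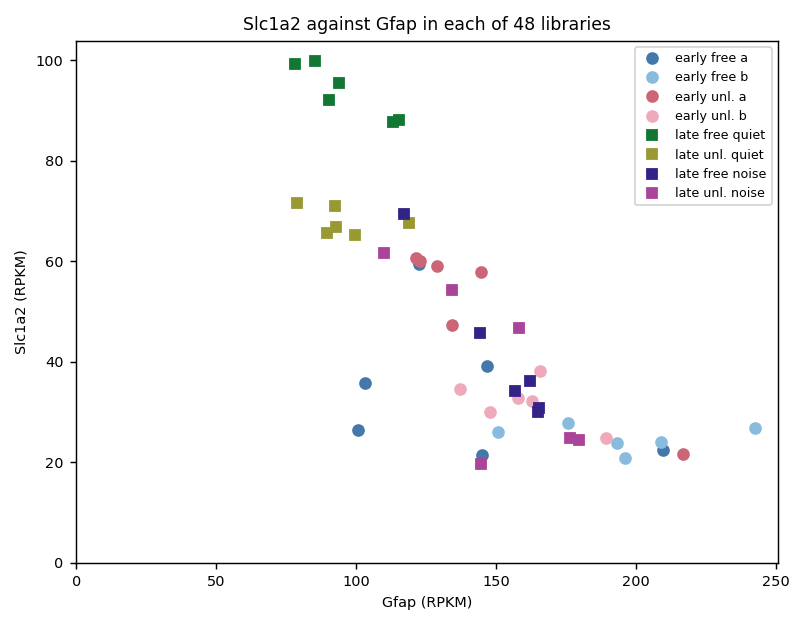
Slc1a2 (y axis, RPKM) against Gfap (x axis, RPKM), each point 1 of 48 libraries coloured by series (circles early, squares late; unl., unloaded). The late quiet series lie at the upper left, and within the noise series Slc1a2 tends to be low where Gfap is high.

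Noise with low pressure was compared with quiet in late free-moving mice. Gfap and Agt rose, and Slc1a2, Slc1a3, Gja1, Aqp4, Glul and Aldh1l1 fell, so that all 8 members passed the threshold in a comparison in which 57.6% of all tested genes did (21.2% higher, 36.4% lower). Slc1a2 fell by 1.24 ± 0.21 on the log2 scale (SE; limma adjusted p = 4.9e-06), Slc1a3 by 0.91 ± 0.17 (adjusted p = 2.6e-05), Gja1 by 0.83 ± 0.17 (9.5e-05) and Aqp4 by 0.80 ± 0.17 (0.00014). Glul fell by 0.51 ± 0.10 (limma adjusted p = 3.9e-05) and Aldh1l1 by 0.31 ± 0.09 (0.0039). Gfap rose by 0.66 ± 0.14 (limma adjusted p = 9e-05) and Agt by 0.53 ± 0.11 (7e-05). Every one of these signs was seen at all 6 title numbers, and the RPKM values of the 2 groups did not overlap for 7 members, all but Glul (32.6% of all tested genes). The median of all tested genes was -0.15 and that of the members -0.65.

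The members were then compared under other scalings. After median-ratio scaling, which brought the median of all genes to 0.00, Gfap was at 0.84 and Agt at 0.70 while Slc1a2 was at -1.07, Slc1a3 at -0.74, Gja1 at -0.65, Aqp4 at -0.63 and Glul at -0.33, all called by limma (64.6% of all genes), and Aldh1l1 was at -0.14 (limma adjusted p = 0.23). With the mitochondrial share as a covariate, 7 members were called (49.1% of all genes) at smaller sizes: Slc1a2 was at -0.52, Slc1a3 at -0.35, Gja1 at -0.27, Aqp4 at -0.58, Glul at -0.32, Gfap at 0.43 and Agt at 0.63. The sign of every member was the same in all 18 alternatives to the deposited scale.

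**Figure D3:**
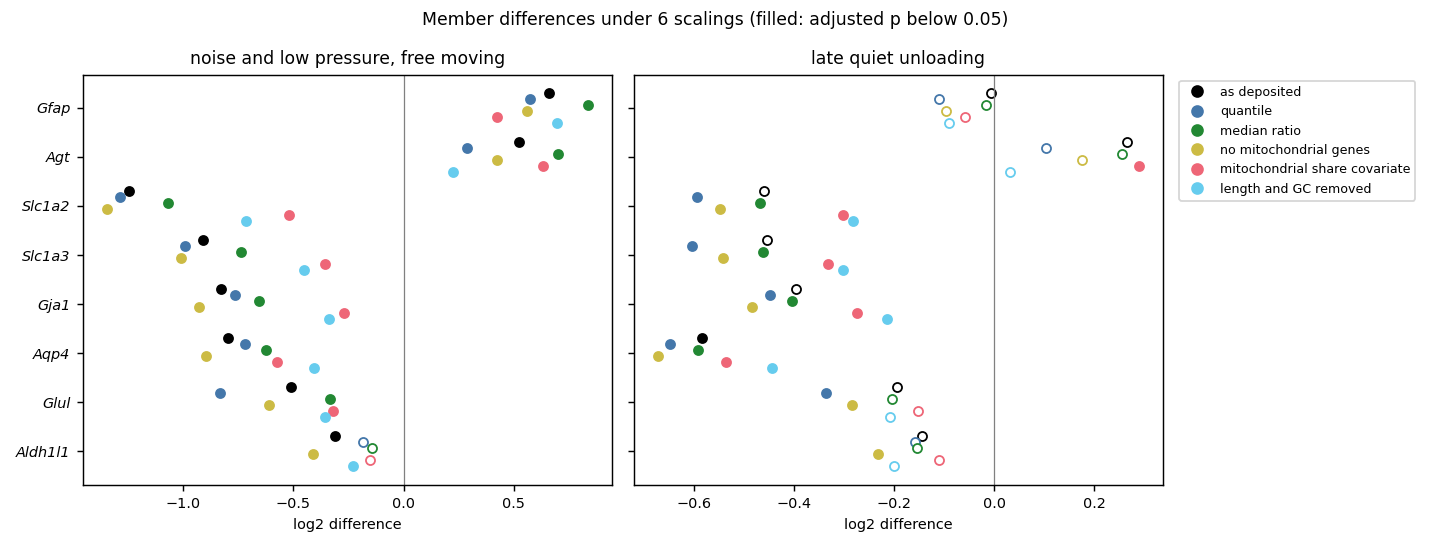
Log2 difference (x axis) of each member (y axis) in 2 comparisons under 6 scalings (colours), filled where the limma adjusted p was below 0.05. In the noise comparison of free-moving mice (left) Gfap and Agt lie above 0 and the others below 0 under each scaling; in late quiet unloading (right) Aqp4 is filled under each.

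Within the noise series Slc1a2 tended to be higher where the mitochondrial share was lower, while Gfap and Agt followed the order seen between series only in part. In the free-moving noise series, library number 5 had the highest Slc1a2 (69.5 RPKM), the lowest Gfap (117.1) and the lowest Agt (190.6) with a mitochondrial share of 15.1%, while the other 5 had Slc1a2 of 30.0 to 45.7, Gfap of 144.1 to 165.1 and shares of 23.4% to 38.8%. In the unloaded noise series, numbers 9, 13 and 17 had Slc1a2 of 19.7 to 24.9 RPKM with shares of 46.9% to 50.04%, and numbers 1, 5 and 21 had Slc1a2 of 46.7 to 61.6 with shares of 10.49% to 31.0%. Gfap overlapped between them, at 144.7 to 179.4 RPKM in numbers 9, 13 and 17 and 109.8 to 158.2 in numbers 1, 5 and 21. Agt was at 224.0 to 238.4 and 222.0 to 268.1 in the same order, and was highest in numbers 1 and 5. What the share contributes to the member differences was not tested beyond the covariate fit.

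In unloaded mice, noise with low pressure gave the same signs at smaller sizes. Gfap rose by 0.65 ± 0.14 on the log2 scale (limma adjusted p = 0.0024) and Agt by 0.30 ± 0.11 (0.018), while Slc1a2 fell by 0.94 ± 0.21 (0.0027), Gja1 by 0.81 ± 0.17 (0.0024), Aqp4 by 0.66 ± 0.17 (0.0037), Slc1a3 by 0.57 ± 0.17 (0.0076) and Glul by 0.24 ± 0.10 (0.038). Aldh1l1 was at -0.07 (adjusted p = 0.51). Thus 7 members were called where 52.3% of all genes were, and the groups did not overlap for Aqp4, Slc1a2 and Gja1 (14.3% of all genes). With the mitochondrial share as a covariate, 0 members and 0 of the 13685 genes were called by limma. Under that covariate Slc1a3 was at -0.05, Slc1a2 at -0.27, Gja1 at -0.29 and Aqp4 at -0.45, while Gfap was at 0.43 and Agt at 0.40. After median-ratio scaling Aqp4 (-0.35, limma adjusted p = 0.063) and Glul (0.08) lost their calls. Without title number 13, 3 members were called, and without title number 9, 4 (the shares of all genes are not given here).

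Whether unloading changed the members differently under noise than in quiet was tested as an interaction. None of the 8 members was called, 0 had an unadjusted p below 0.05, and 4.38% of all genes were called by limma. The member nearest to a call was Glul (log2 difference of differences 0.27, limma adjusted p = 0.28). After median-ratio scaling Slc1a3 was called at 0.48 (limma adjusted p = 0.026; 4.57% of all genes), against 0.34 as deposited (adjusted p = 0.48).

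The late quiet series were then compared with the early ones. Among free-moving mice, Slc1a2 was higher by 1.72 ± 0.18 on the log2 scale in the late series (limma adjusted p = 8.2e-11), at 93.8 ± 5.33 RPKM (n = 6) against 29.5 ± 10.9 (n = 12). Aqp4 rose by 1.27 ± 0.15, Gja1 by 1.21 ± 0.15, Slc1a3 by 1.18 ± 0.15, Glul by 0.60 ± 0.09 and Aldh1l1 by 0.31 ± 0.08, while Gfap fell by 0.75 ± 0.12 and Agt fell by 0.53 ± 0.09 (limma adjusted p from 7.1e-10 for Aqp4 to 0.00054 for Aldh1l1). All 8 members were called, 6 higher and 2 lower, beside 78.5% of all genes (60.5% higher, 18% lower). The RPKM ranges did not overlap for Slc1a2, Slc1a3, Gja1 and Aqp4 (36.3% of all genes). The median of all genes was 0.43, and against it the Aldh1l1 difference was small: it was at -0.16 after median-ratio scaling (limma adjusted p = 0.11), and Glul was at 0.12 (0.19). With the mitochondrial share as a covariate 6 members were called (45.3% of all genes), with Slc1a2 at 0.55, Gfap at -0.37 and Agt at -0.71, while Slc1a3 was at 0.28 (limma adjusted p = 0.062) and Aldh1l1 at 0.05.

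Among unloaded quiet mice the same comparison gave smaller values. Slc1a2 was higher by 0.79 ± 0.18 (limma adjusted p = 0.0013), Aqp4 by 0.63 ± 0.15 (0.0014), Gja1 by 0.50 ± 0.15 (0.0066) and Slc1a3 by 0.35 ± 0.15 (0.0498), while Gfap fell by 0.66 ± 0.12 (0.00024) and Agt fell by 0.50 ± 0.09 (0.00032). Glul (0.07) and Aldh1l1 (0.02) were not called. This made 6 members beside 47.3% of all genes, and the groups did not overlap for Gfap, Aqp4 and Slc1a2 (4.65% of all genes). Slc1a3 lost its call after median-ratio scaling (0.11, limma adjusted p = 0.24) and was at -0.04 both with adjustment for the mitochondrial share and with the length and GC trend removed. Gja1 lost it under the last 2 settings (0.12, adjusted p = 0.35, and 0.06, 0.46), and Aqp4 with the trend removed (0.27, 0.066). Slc1a2 was called at 0.29 and 0.32 under these settings. The noise comparisons and the late against early comparisons share the late quiet series, so the opposite signs of the members in them are not independent of each other.

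**Figure D4:**
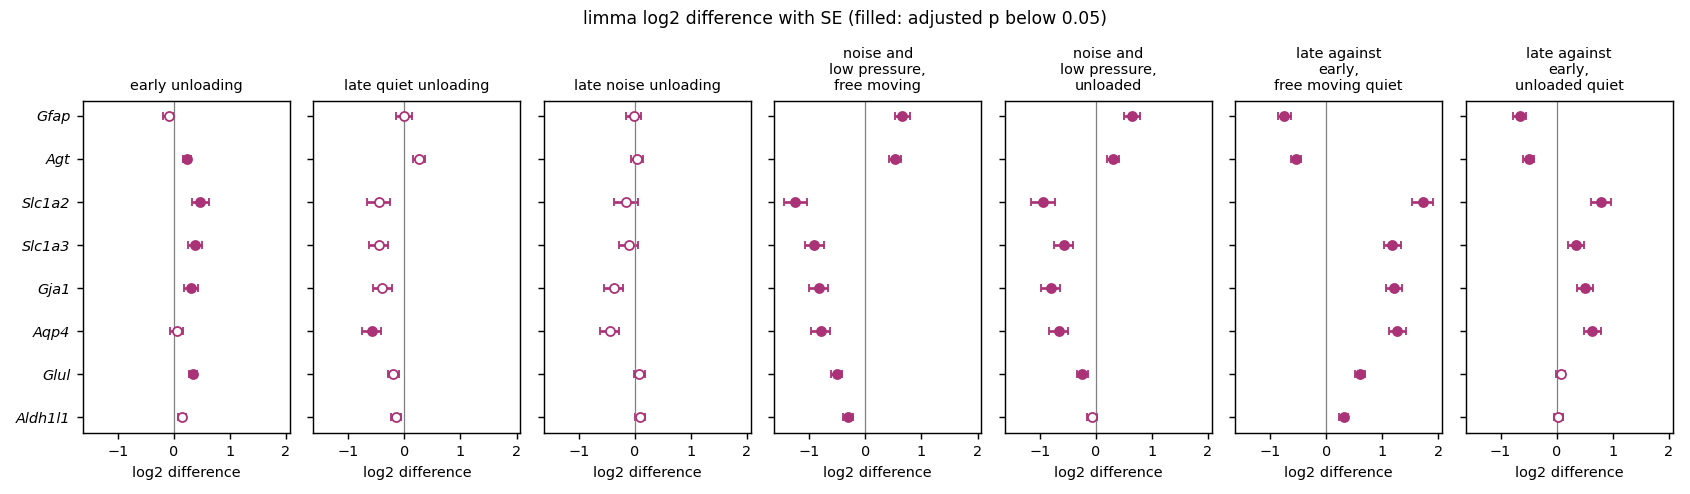
Log2 difference with its SE (x axis) for each member (y axis) in 7 comparisons (panels), filled where the limma adjusted p was below 0.05. Gfap and Agt lie opposite to Slc1a2, Slc1a3, Gja1 and Aqp4 in the noise and the late against early panels.

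In late quiet conditions Aqp4, the endfoot water channel, was lower in unloaded than in free-moving mice, at 19.99 ± 2.29 against 30.2 ± 3.36 RPKM (n = 6 each). The free-moving libraries ran from 25.4 to 34.6 and the unloaded ones from 16.9 to 22.9, with no overlap, and the log2 difference was -0.58 ± 0.17 (limma adjusted p = 0.018; 12.8% of all genes called, 3.38% lower). Aqp4 was the only member called. It lost the call without title number 5, 13, 17 or 21 (limma adjusted p = 0.064, 0.073, 0.076 and 0.057, log2 differences -0.54 to -0.59). Slc1a2 (-0.46 ± 0.21, adjusted p = 0.14), Slc1a3 (-0.45 ± 0.17, 0.069) and Gja1 (-0.40 ± 0.17, 0.12) also had groups that did not overlap (24.6% of all genes), with Slc1a2 at 65.2 to 71.5 RPKM against 87.8 to 99.9.

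The fit over all 48 libraries shares 1 estimate of the spread for each gene. With only their 12 libraries in the fit, 6 members were called (51.9% of all genes). After median-ratio scaling the calls were Aqp4 (-0.59), Slc1a2 (-0.47), Slc1a3 (-0.46) and Gja1 (-0.41), beside 23.4% of all genes, and with adjustment for the mitochondrial share they were 5 (29.6% of all genes), with Agt added at 0.29. Gfap did not differ beyond its spread in either direction, at 95.4 ± 13.3 RPKM against 96.0 ± 15.0 (log2 difference -0.01, limma adjusted p = 0.98). Glul was at -0.19 (0.19), Aldh1l1 at -0.15 (0.31) and Agt at 0.27 (0.087).

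Unloading under noise and low pressure gave no call among the members (limma; 2 had an unadjusted p below 0.05) and 2 calls among all genes, 0.0146%, with 855 at an unadjusted p below 0.05. The 2 members were Aqp4, at 12.6 ± 2.56 RPKM against 17.6 ± 4.73 (log2 difference -0.45, lower at 6 of 6 title numbers), and Gja1, at 16.7 ± 4.84 against 21.5 ± 4.76 (-0.38, lower at 5 of 6). The other 6 lay between -0.16 (Slc1a2) and 0.10 (Aldh1l1).

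Early unloading was measured in 12 unloaded and 12 free-moving libraries. Glul rose by 0.33 ± 0.07 on the log2 scale (limma adjusted p = 0.0043), higher at 6 of 6 title numbers, from 339 ± 63.8 to 427 ± 72.6 RPKM. Slc1a2 (0.47 ± 0.15, adjusted p = 0.011), Slc1a3 (0.38 ± 0.12, 0.012), Agt (0.23 ± 0.07, 0.012) and Gja1 (0.31 ± 0.12, 0.031) were also called, and Aldh1l1 (0.14), Aqp4 (0.05) and Gfap (-0.09) were not. These 5 of 8 stand beside 52.8% of all genes called, 50.9% higher, and the member median of 0.27 beside 0.23 for all genes, so the share is near the background. The groups overlapped for every member, and 0 members were called by limma after median-ratio scaling (20.7% of all genes), with the mitochondrial share as a covariate (0.00731% of all genes), or without title number 9 or 17 (shares not given here). Without the pituitary-rich library the calls were Glul, Slc1a2, Slc1a3, Agt and Aldh1l1 (0.16, limma adjusted p = 0.049), and Gja1 was at 0.26 (0.077). With the length and GC trend removed the 1 call was Gfap, at -0.34 (limma adjusted p = 0.047).

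The paired early series with the same labels show how far members moved without a labelled difference. Between the free-moving series, 0 of 8 members were called (0.256% of all genes; 1 had an unadjusted p below 0.05), and Gfap was nearest, at 194 ± 30.9 RPKM in series b against 138 ± 40.2 in series a (log2 difference 0.52, limma adjusted p = 0.059). Without library number 1 of early unloaded series a this Gfap difference had an adjusted p of 0.031, the fit sharing its spread. Between the unloaded series, Glul was called (0.833% of all genes), at 372 ± 56.2 RPKM in series b against 481 ± 36.0 in series a (log2 difference -0.38, limma adjusted p = 0.049), and Slc1a2 was at -0.60 (0.088). The mitochondrial share was 34.3% in unloaded series b and 20.5% in series a. Without library number 1 of unloaded series a, 4 members were called (the share of all genes is not given here). Without library number 9 of that series, the one rich in pituitary transcripts, Glul was at -0.39 (limma adjusted p = 0.12). After median-ratio scaling the 1 call was Slc1a2 (-0.43), not Glul.

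Over the title numbers, taken as hours of a 24 hour day, which is an assumption, Glul was the only member with a called rhythm (1.76% of all genes called). Its mean over the 8 series was 437 RPKM at number 1, 474 at 5, 389 at 9, 350.0 at 13, 364 at 17 and 404 at 21. Number 5 was the highest in 5 of 8 series and number 13 the lowest in 5 of 8. The fitted log2 amplitude was 0.22 with its peak at 2.91 (limma adjusted p = 0.0004), and Glul was called in each of the 16 alternatives run, at amplitudes of 0.16 (median-ratio scaling) to 0.25 (without title number 1). Aldh1l1 (amplitude 0.12, limma adjusted p = 0.13) and Agt (0.11, 0.31) came next and were not called. Agt had its highest value at number 1 in 6 of 8 series, with a mean of 269.6 RPKM there and 210.9 to 233.3 at the other numbers. Slc1a2 was highest at number 5 in 5 of 8 series, at a mean of 59.5 RPKM against 42.6 to 49.3 elsewhere, without a call (amplitude 0.12, adjusted p = 0.68). Only 1 library stands behind each number in a series, and the labels do not tie a number to a day or litter.

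**Figure D5:**
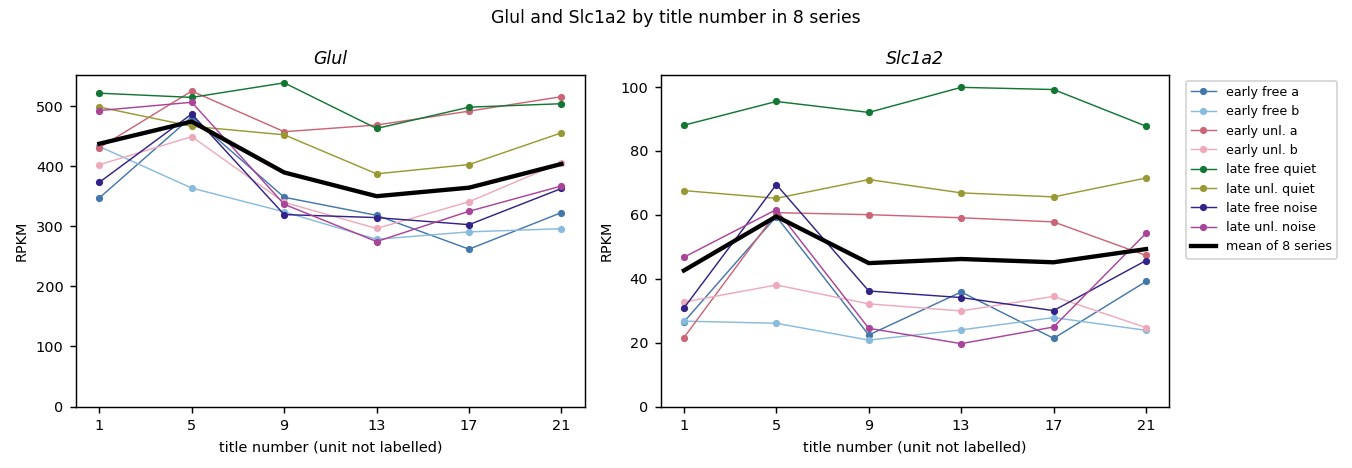
RPKM (y axis, from 0) of Glul (left) and Slc1a2 (right) against title number (x axis, unit not labelled), a thin line per series and a thick line for the mean of 8. Glul is highest at number 5 and lowest at number 13 on average, while the peak of Slc1a2 at number 5 comes from some of the series.

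Other genes of astrocytes were followed through a list of 32, chosen with earlier results of these data known and so no independent evidence. Under noise and low pressure in free-moving mice 3 rose and 22 fell (21.2% of all genes higher, 36.4% lower). The list median was -0.56 beside -0.15 for all genes. Those that fell included Slc4a4 (-1.33), a bicarbonate cotransporter, Kcnj10 (-1.17), the potassium channel of astrocytes, Slc39a12 (-0.97), a zinc transporter, and Sox9 (-0.64), a transcription factor of glia, the largest limma adjusted p being 1.4e-05 for Sox9. The 3 that rose were Apoe (0.56), the lipid carrier, Itih3 (0.54) and S100b (0.36), a calcium-binding protein, which thus went with Gfap and Agt. In the late against early comparison of free-moving mice 27 rose and 3 fell (60.5% of all genes higher, 18% lower). The 3 were again Itih3 (-0.63), S100b (-0.49) and Apoe (-0.38), in a comparison that shares the late quiet free-moving series. After median-ratio scaling the late against early split was 20 higher and 8 lower (the share of all genes is not given here). The noise split was then 3 and 19, beside 64.6% of all genes called in either direction. Early unloading gave 24 higher (50.9% of all genes) and 1 lower, S100b (-0.34), but 5 and 1 after median-ratio scaling (20.7% of all genes in either direction). Late quiet unloading gave 1 higher and 7 lower (3.38% of all genes lower), among them Slc4a4 (-0.60), Slc39a12 (-0.56), Kcnj10 (-0.55) and Ednrb (-0.53), an endothelin receptor.

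Genes tied to single members moved in part with them. Of 9 genes of endfeet, 7 fell and 1 rose under noise in free-moving mice, with Dtna (-0.73), Dmd (-0.64) and Dag1 (-0.89) of the dystrophin complex falling with Aqp4, and the ion channel gene Trpv4 (0.58) rising. Of 12 genes of glutamate and glutamine handling 7 fell and 0 rose, including Glud1 (-0.69), glutamate dehydrogenase, and the neuronal Gad2 (-1.50) and Slc17a6 (-1.20). Of 9 intermediate filament genes, Vim (0.55), Des (0.69), Plec (0.61) and Nes (0.27) rose with Gfap and 5 fell, among them the neurofilament genes Nefm (-0.97), Nefh (-0.85) and Nefl (-0.45). Of 8 tested renin-angiotensin genes (12 listed) none rose with Agt and 3 fell, Lnpep (-1.34), Atp6ap2 (-0.51) and Enpep (-0.31). Of 20 tested genes of reactive astrocytes (22 listed) 8 rose and 1 fell, with Aspg at 1.04, Timp1 at 0.84 and S100a10 at 0.81, while C3 was at -0.02 (limma adjusted p = 0.88) and Serpina3n at -0.18 (0.35). After median-ratio scaling these counts were 2 higher and 6 lower for endfeet, 2 and 7 for glutamate handling, 4 and 4 for filaments, 2 and 2 for renin-angiotensin genes and 8 and 0 for reactive astrocytes. On that scale 64.6% of all genes were called in either direction, and their split into higher and lower is not given here. Of 8 gap junction genes 3 fell, Gja1, Gjd2 (-0.68) and Gjc1 (-0.33), and of 8 tested folate genes 3 fell and 2 rose. The counts as deposited for the renin-angiotensin, gap junction and folate genes are near the shares over all genes on that scale (36.4% lower, 21.2% higher).

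Markers of other cell types moved in the same libraries, and their part in the member differences was not tested. Of 10 neuron markers 8 fell and 0 rose under noise in free-moving mice (36.4% of all genes lower), and 9 rose in the late against early comparison (60.5% of all genes higher). Their summed level was 1641 ± 130.5 RPKM in late quiet free-moving mice and 991 ± 95.1 to 1561 ± 98.6 as series means elsewhere, an order like that of Slc1a2. Of 10 ependymal and tanycyte markers 7 rose and 0 fell under noise in free-moving mice (21.2% of all genes higher, 36.4% lower). Late against early 7 fell and 2 rose (18% of all genes lower, 60.5% higher). Vim is in this list and also in those of reactive astrocyte and intermediate filament genes, so the lists are not separate. Their sum was 108 to 127 RPKM in the late quiet free-moving libraries and 124 to 264 over the early and noise libraries. In the late quiet unloaded libraries it was 131.9 to 149.6, above the free-moving ones, while Gfap did not differ between these series. None of the genes of either list was at 0 in all libraries.

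Gene length went with the differences too. In the noise comparison of free-moving mice the median log2 difference was 0.38 for genes with under 2000 exon bases and -0.48 for those over 8000, and late against early it was -0.28 and 0.88. The members' exon lengths (GENCODE, GRCm38) were 1891 bases for Agt, 3323 for Glul, 4218 for Gfap, 4516 for Aldh1l1, 6233 for Aqp4, 8537 for Slc1a3, 10257 for Gja1 and 13133 for Slc1a2. Agt, the shortest, rose under noise, and the 4 longest had the 4 largest falls. With the length and GC trend of each library removed, an alternative chosen after the data were seen, the noise comparison kept all 8 calls (59.6% of genes called), with Gfap at 0.69, Agt at 0.22, Slc1a2 at -0.72, Slc1a3 at -0.45, Gja1 at -0.34, Aqp4 at -0.41, Glul at -0.36 and Aldh1l1 at -0.23. Late against early in free-moving mice, the same removal brought Slc1a2 from 1.72 to 0.76, Aqp4 from 1.27 to 0.55, Slc1a3 from 1.18 to 0.36 and Gja1 from 1.21 to 0.32, all still called, with Gfap at -1.04 and Agt at -0.37. The RPKM of Slc1a2, Aldh1l1 and Aqp4 may include reads of an overlapping antisense gene, since strand use in counting is not given in the sources used here.

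The genes most like 7 of the members over the 48 median-ratio scaled libraries were looked up as a description; the libraries share their series and no test was made. For Slc1a2 they were Hspa4 (r = 0.98), Tspyl4 (0.98) and Dnm3 (0.97), for Slc1a3 Astn1 (0.93), Ntrk2 (0.93) and Fbxw11 (0.93), and for Gja1 Atp6v1a (0.93), Cltc (0.93) and Wdr7 (0.93). For Aqp4 they were Wwp1 (0.87), Stk39 (0.86) and Mbnl2 (0.85), for Gfap Igf2 (0.96), Hspb8 (0.96) and Ifitm2 (0.94), and for Agt Smpd2 (0.96), Oxt (0.96) and Rack1 (0.96). Glul had Fam107a (0.87), Psat1 (0.75) and Ak3 (0.75). Among the members themselves, with series means removed, Gfap and Slc1a2 had r = -0.80, Slc1a2 and Gja1 0.72, Gfap and Agt 0.69, and Slc1a2 and Glul -0.04 over the same 48 libraries. Aldh1l1 here went with Agt (0.80) and Gfap (0.54) and against Slc1a2 (-0.57), Slc1a3 (-0.55) and Gja1 (-0.61). These signs depend on the scale. On the deposited scale, with series means kept, Aldh1l1 had r = 0.53 with Slc1a2, 0.54 with Slc1a3 and 0.46 with Gja1. It had -0.34 with Gfap and 0.10 with Agt there, and Slc1a2 had 0.79 with Glul. With series means kept after median-ratio scaling, Aldh1l1 and Slc1a2 had r = -0.47, and Slc1a2 and Glul 0.15. Aqp4 had r = 0.21 with Slc1a2, 0.23 with Slc1a3, 0.42 with Gja1 and 0.07 with Gfap.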

How the data were processed

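RNA of hypothalamus was extracted with Trizol and sequenced on Illumina instruments, per the labels' protocols. The authors deposited 1 table of RPKM values, 21558 genes in 48 libraries. CASAVA 1.8 and HISAT are named in the submitters' processing notes, while for build, annotation and strand setting the entry is "not given in the sources used here". RPKM values were taken as log2(RPKM + 0.5), so fold changes of low genes are understated. Genes with a mean RPKM of at least 0.5 (13685) were fitted with limma 3.58.1 (R 4.3.3, lmFit and eBayes with trend) over all 48 libraries, with terms for series and title number (35 residual degrees of freedom). Tests were two-sided, p-values were Benjamini-Hochberg adjusted over all genes in each of 11 comparisons, and the threshold for a call was an adjusted p below 0.05. Rhythm was tested as a sine and a cosine of period 24. The fit was tested on simulated data. Exon lengths and overlaps came from the GENCODE annotation of GRCm38. The members and gene lists were chosen with earlier results of these data known. The genes named are the 8 members, up to 4 of each other list with the smallest p, and the 3 most alike to each member (those of Aldh1l1 are not reported here); other list genes were named after their values were seen. Alternatives were another pseudocount, no expression filter, other scalings, the mitochondrial share as a covariate, fits without the title number or with only the series compared, and leaving out libraries. Removal of the length and GC trend and leaving out library 1 of early unloaded series a or library 5 of early free-moving series a were chosen after seeing the data. Libraries with the same title number had deviations from their series means with a median correlation of 0.080, against -0.017 for other pairs, and 75 of 168 same-number pairs were above 0.1, so the numbers were not shown to pair libraries; the title number stays in the model as a term for the number in the titles. No 2 libraries held identical values.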

Additional observations from a re-analysis of the deposited data

Results flagged for a closer look

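In 64 groups of 6 libraries (8 members in 8 series), 3 had a highest or lowest library whose gap to the next, as a share of the group's range, was above the critical value of 0.625, and chance gives about 5% of groups. Gfap was 216.6 RPKM in library number 1 of early unloaded series a, with the next at 144.4. Slc1a2 was 21.6 RPKM in the same library, with the next at 47.3. That library had a mitochondrial share of 48.2%, while the other 5 of its series had 11.2% to 18.5%. Slc1a3 was 83.6 RPKM in library number 5 of the late free-moving noise series, with the next at 56.4, and that library had the lowest mitochondrial share of its series, 15.1%. The part of the share in these values was not tested.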

How the results depend on the processing

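Of 8 members, 5 were called for early unloading as deposited, 1 under quantile normalization, 0 after median-ratio scaling, 2 on a common sum without mitochondrial genes, 0 with the mitochondrial share as a covariate, 3 with only the series compared, 1 with the length and GC trend removed (Gfap, lower, which was not among the 5), and 0 to 6 without 1 title number. For late quiet unloading (1 as deposited) the counts in that order were 5, 4, 6, 5, 6 and 4, with 2 without library number 1 of early unloaded series a and 0 to 1 without 1 title number. For noise in unloaded mice (7) they were 0 with the covariate, 4 with the length and GC trend removed and 3 to 7 without 1 title number. Late against early in unloaded mice (6) gave 3 with the length and GC trend removed. The interaction (0) gave 1 under quantile normalization, 1 after median-ratio scaling and 1 on the common sum. Early free-moving series b against a (0) gave 1 with the covariate, 1 without library number 9 and 1 without library number 1 of early unloaded series a, and 0 to 1 without 1 title number. Early unloaded series b against a (1) gave 0 with pseudocount 0.1, 0 without the expression filter, 3 under quantile normalization, 2 on the common sum, 0 with the covariate, 0 with only the series compared, 0 and 4 without library number 9 and 1 of series a, and 0 to 4 without 1 title number. Without the replicate block on title number that comparison gave 0 calls, noise in unloaded mice 6 and late against early in unloaded mice 5, and the other counts were the same. The share of all genes called moved as well. For early unloading it was 52.8% as deposited, 20.7% after median-ratio scaling and 0.00731% with the covariate. For late quiet unloading it was 12.8%, 23.4% and 29.6% in that order, and 51.9% with only the series compared. Where no share is given here, a changed count is not set against all genes. Fewer libraries or another scale enter each alternative, and the cause of each change was not tested.

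Signs changed for single members as follows. In early unloading, quantile normalization gave Aqp4 -0.18 and Aldh1l1 -0.069, median-ratio scaling Aqp4 -0.20, Aldh1l1 -0.11 and Agt -0.025, the common sum Aqp4 -0.079, and the covariate Gfap 0.073, Aqp4 -0.11, Slc1a2 -0.042, Slc1a3 -0.019 and Gja1 -0.085. Leaving out 1 title number gave Aqp4 from -0.023 (number 1) to 0.13, and removing the length and GC trend Aqp4 -0.17 and Aldh1l1 -0.10. In late quiet unloading Gfap ran from -0.047 to 0.10 without 1 title number. In late noise unloading Gfap was 0.053 under quantile normalization, 0.11 after median-ratio scaling, 0.041 on the common sum and 0.059 with the length and GC trend removed, Slc1a3 was 0.020 after median-ratio scaling and 0.026 with the trend removed, Slc1a2 0.0097 with the trend removed, and Agt ran from -0.039 to 0.074 without 1 title number. For noise in unloaded mice, Aldh1l1 was 0.18 under quantile normalization, 0.24 after median-ratio scaling, 0.078 with the covariate and 0.15 with the trend removed, and Glul 0.078 after median-ratio scaling and 0.0048 with the trend removed. Late against early in free-moving mice gave Aldh1l1 -0.051, -0.16 and -0.033 under quantile normalization, median-ratio scaling and removal of the trend. In unloaded mice it gave Aldh1l1 -0.14, -0.20 and -0.13 under the same settings and -0.087 with the covariate, Glul -0.16, -0.062 and -0.11 after median-ratio scaling, with the covariate and with the trend removed, and Slc1a3 -0.037 with the covariate and -0.042 with the trend removed.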
